A study of Mus musculus with 9 samples.

Results

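The genes described here encode the TGF-beta, BMP and activin pathway of mouse adipose tissue. They were chosen by symbol: 44 genes were taken from the 32285 genes of the feature table, and each of the 44 had UMIs (unique molecular identifiers, tags that mark each captured RNA once) in the nuclei kept. The 44 comprised 3 TGF-beta ligands, 8 BMP and GDF ligands, 2 activin subunits, 5 TGF-beta receptors and co-receptors, 8 BMP and activin receptors, 6 receptor Smads and Smad4, 2 inhibitory Smads, 4 latent TGF-beta binding proteins and 6 secreted modulators. Nuclei came from epididymal adipose tissue, a visceral depot beside the testis, of male C57BL/6J mice on different diets, and were profiled by droplet single-nucleus RNA sequencing. Each of the 9 libraries pooled 5 mice of its own diet group. The groups C, CC and CCC ate chow to 18, 26 and 39 weeks of age, where by the study's methods C was on a low-fat chow and CC and CCC had moved to another chow. The diet rich in fat (HFD) was given to group H for 12 weeks, to an age of 18 weeks, and to group HH for 25 weeks, to an age of 31 weeks. The weight-loss group HC had 12 weeks of HFD followed by 8 weeks of chow and was 26 weeks old, and HHC had 25 weeks of HFD followed by 8 weeks of chow and was 39 weeks old. The last 2 groups ate HFD for 4 weeks before collection at 30 weeks of age, in CCH after chow only and in HCH after 12 weeks of HFD and 8 weeks of chow.

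TGF-beta superfamily ligands are secreted dimers that bring together type II and type I serine/threonine kinase receptors. The TGF-beta and activin branch acts mainly through Smad2 and Smad3, the BMP branch mainly through Smad1, Smad5 and Smad9, and both share Smad4, while Smad6 and Smad7 inhibit. Latent TGF-beta binding proteins hold TGF-beta in the extracellular matrix, and secreted antagonists such as follistatin and the chordin-like proteins bind ligands before they reach a receptor. In adipose tissue the TGF-beta branch is known for matrix production and for restraining adipogenesis, and several BMPs are known for promoting commitment to the adipocyte lineage.

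Nuclei were assigned to cell classes by marker genes, none of which is a member of the pathway list. A nucleus entered a class with at least 3 UMIs over at least 2 of the class markers and at least 60% of its class-marker UMIs in that class. Over the 9 libraries 73179 nuclei were kept of 91687 barcodes, from 4007 in CC to 12487 in HH, with a median of 2079 UMIs per nucleus in CCC to 3214 in CCH. Per library 179 to 2481 nuclei were adipocytes, 232 to 3291 adipocyte progenitors, 217 to 5159 macrophages and 38 to 778 endothelial nuclei. Mural and mesothelial classes were thin under this rule (lowest counts 3 and 5), so these classes and the epithelial and lymphatic endothelial nuclei were described with a relative gate chosen after the nuclei were counted: at least 2 UMIs over at least 2 markers, with the class markers at least 2-fold above the library and above the next class. It gave 79 to 262 mural, 178 to 617 mesothelial, 61 to 211 lymphatic endothelial and 48 to 382 epithelial nuclei per library. Libraries shared 8 to 55 barcodes in pairs, at most 0.493% of the smaller library. Levels are CPM, the UMIs of a gene per 1000000 UMIs of its class in a library, with mitochondrial genes and Malat1 left out of the class sums. The UMIs given per nucleus and per library include these genes. The median member had 11313.5 UMIs, and 5 members had fewer than 1000.

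There were no replicates of a diet group, so 2 kinds of comparison were made. In edgeR fits, libraries of 1 diet state stood as replicates: chow (C, CC, CCC), HFD (H, HH) and weight loss (HC, HHC), which differ within a state in age and diet length. A fold there is log2 ± SE, and a gene is said to have risen or fallen where its adjusted p over the genes tested was under 0.05. Ratios of 2 libraries carry exact 95% intervals that cover counting error only, have no test, and were counted as higher or lower at 2-fold or more with at least 20 UMIs in both libraries together. In bulk sums of a class, fewer nuclei of a subtype and less RNA per nucleus cannot be told apart. The libraries C, H, HH, CCH and HCH carried the sequencing set label S075 and CC, CCC, HC and HHC the label S019, so HH with CC crosses sets, and HH is also given against C.

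Promoter sequence is shown for 4 members whose levels the results below turn on: Gdf15 and Tgfbr1, which rose in macrophages, and Fstl1 and Bmper, which were higher in progenitors than in the other classes. Sequences are the 250 bases before the RefSeq transcript start on GRCm38.p6, on the strand of the gene, and capitals mark a match to a searched motif on either strand.
Gdf15, chr8:70632457-70632706, minus strand: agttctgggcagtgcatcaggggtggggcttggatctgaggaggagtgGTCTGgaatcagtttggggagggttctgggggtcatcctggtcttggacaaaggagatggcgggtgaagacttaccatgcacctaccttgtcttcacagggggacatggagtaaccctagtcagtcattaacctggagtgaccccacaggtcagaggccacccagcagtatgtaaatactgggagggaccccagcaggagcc
Tgfbr1, chr4:47352972-47353221, plus strand: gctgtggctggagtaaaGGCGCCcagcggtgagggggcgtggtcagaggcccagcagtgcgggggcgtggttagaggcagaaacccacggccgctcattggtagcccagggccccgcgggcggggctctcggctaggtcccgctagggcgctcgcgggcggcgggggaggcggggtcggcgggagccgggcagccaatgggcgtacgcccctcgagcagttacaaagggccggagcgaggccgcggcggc
Fstl1, chr16:37776805-37777054, plus strand: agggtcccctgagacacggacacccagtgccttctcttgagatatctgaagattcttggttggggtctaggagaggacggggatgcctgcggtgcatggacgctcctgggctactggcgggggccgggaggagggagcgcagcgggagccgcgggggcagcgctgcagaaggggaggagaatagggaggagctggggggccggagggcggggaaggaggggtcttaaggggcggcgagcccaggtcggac
Bmper, chr9:23222826-23223075, plus strand: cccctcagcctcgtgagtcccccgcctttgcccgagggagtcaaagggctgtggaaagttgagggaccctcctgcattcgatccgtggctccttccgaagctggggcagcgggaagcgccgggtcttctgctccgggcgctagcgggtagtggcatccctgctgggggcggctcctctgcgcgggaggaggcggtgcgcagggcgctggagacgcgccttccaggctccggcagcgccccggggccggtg
The Gdf15 window held 1 Smad box (CAGAC or its reverse complement GTCTG) and had a GC content of 56.4%. The Tgfbr1 window held 1 GC-rich Smad site (GGCGCC) at 74.8% GC, and the Fstl1 and Bmper windows held none of the 4 motifs at 68% and 71.6% GC. Over all 32817 starts of the table, 42.2% of windows held a Smad box, 9.59% a GC-rich Smad site, 6.02% an E-box (CACGTG) and 6.75% an AP-1 site (TGANTCA). Of the 42 starts found for 32 members, 19 held a Smad box, 8 a GC-rich Smad site, 5 an E-box and 0 an AP-1 site. These are letter matches in a window and no evidence of binding.

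Members of the pathway differed in the cell class of their highest level. A class could lead for ligands, receptors and modulators alike, as progenitors did for Gdf10, Tgfbr3 and Bmper. Of the 36 members tested, edgeR with the library as a block placed 16 higher in progenitors than in the mean of the other classes (adjusted p under 0.05 and a log2 fold over 1, background 13.6% of genes tested) and 12 in adipocytes (background 17.9%). It placed 12 in endothelial nuclei (background 12.8%), 11 in lymphatic endothelial nuclei (background 9.64%), 11 in mesothelial nuclei (background 13.5%), 2 in macrophages (background 14.1%), 2 in T and NK nuclei (background 9.66%) and 0 in B cells (background 9.42%). A member can be counted in several classes. As shares of 36, the counts in progenitors, adipocytes, endothelial, lymphatic endothelial and mesothelial nuclei stood above their backgrounds, and those in macrophages, T and NK nuclei and B cells stood below. Mural and epithelial nuclei were not in this fit. Their folds below come from a fit of 12 classes under the relative gate, which tested 40 members. That fit placed 15 higher in mural nuclei (background 10.5%), 18 in progenitors (background 10.6%) and 4 in epithelial nuclei (background 16%).

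**Figure D1:**
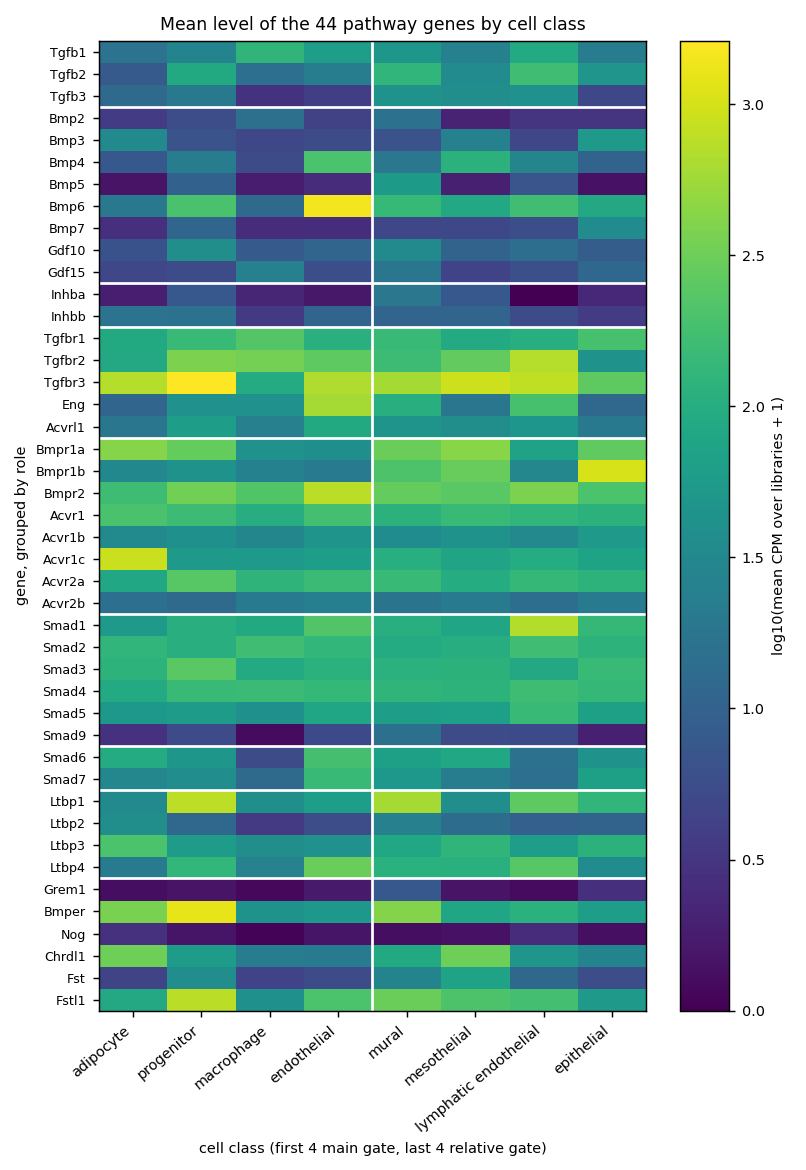
Mean level of each of the 44 members (rows, ordered by role) in 8 cell classes (columns), as the colour of log10 of the mean CPM over libraries plus 1; the first 4 classes use the main gate and the last 4 the relative gate. Brighter colours are higher levels. Acvr1c is brightest in adipocytes, Bmper and Tgfbr3 in progenitors, Bmp6 in endothelial nuclei and Bmpr1b in epithelial nuclei.

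Among the TGF-beta ligands, Tgfb1 was highest in macrophages at 89.5 to 161 CPM over the 9 libraries, with a log2 fold of 1.35 ± 0.125 over the mean of the other classes. The mean in macrophages (124 ± 27.7 CPM, SD, n = 9) did not differ from those in B cells (112 ± 46.05) and in T and NK nuclei (99.9 ± 37.5) beyond their spread. Tgfb2 was highest in lymphatic endothelial nuclei (log2 3.93 ± 0.29; 85.4 to 295 CPM under the relative gate), followed within the spread by mural nuclei (log2 2.60 ± 0.184), and was also higher in progenitors (log2 2.41 ± 0.185). Tgfb3 was higher in mural nuclei (log2 2.29 ± 0.222), at a mean of 41.7 ± 20.1 CPM that lay within the spread of the mean in lymphatic endothelial nuclei (41.4 ± 21.8 CPM, SD, n = 9 for both).

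Among the BMP ligands Bmp6, an iron-regulating ligand in liver endothelium, was a blood endothelial transcript here at 1015 to 2034 CPM (log2 5.15 ± 0.214). Bmp4 was higher in endothelial nuclei (log2 3.81 ± 0.195) and in mesothelial nuclei (log2 2.51 ± 0.319) than in the mean of the other classes. Bmp3, an atypical ligand that opposes other BMPs, was higher in adipocytes (log2 3.004 ± 0.32), and in epithelial nuclei it ranged from 0 to 256 CPM between libraries. Gdf10, which is closely related to Bmp3, was higher in progenitors (log2 1.96 ± 0.17; 20.5 to 60.8 CPM). Bmp5, named after its values were seen, was higher in mural nuclei (log2 4.82 ± 0.302).

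Among the receptors Acvr1c, the type I receptor ALK7 known for its high expression in adipocytes, had the largest adipocyte fold of any member (log2 5.27 ± 0.204) with 1477, 1034 and 689 CPM in C, CC and CCC, 799 and 757 in H and HH, 771 and 703 in HC and HHC, and 1134 and 803 in CCH and HCH. The chow library C and the library CCH had the highest adipocyte levels, and the chow library CCC the lowest. Bmpr1a, a BMP type I receptor, was higher in mesothelial nuclei (log2 2.76 ± 0.216) and adipocytes (log2 2.72 ± 0.16). Bmpr1b was higher in mesothelial nuclei (log2 3.86 ± 0.336; 199.7 to 422 CPM under the relative gate) and in epithelial nuclei (log2 5.05 ± 0.212), where HC at 93.7 CPM stood below the other libraries at 893 to 1408 CPM. The epithelial class of HC also differed in its own markers. Pax2 stood at 1178 CPM in HC and 213 to 534 in the other libraries, and Epcam at 31.7 and 52.6 to 271. The part of this difference in the Bmpr1b level was not tested. Tgfbr3, the betaglycan co-receptor, was higher in progenitors (log2 2.48 ± 0.13; 1409.8 to 1784 CPM), and its spread over the 9 progenitor libraries was small (mean 1619 ± 133 CPM, SD, n = 9).

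Endothelial nuclei held the receptors known for vascular signalling. Eng (endoglin) was higher there at log2 4.54 ± 0.148 and 432 to 975 CPM, Acvrl1 (ALK1) at log2 2.20 ± 0.158 and Bmpr2 at log2 2.28 ± 0.105. The inhibitory Smads, which BMP signalling is known to induce, were higher in the same nuclei (Smad6 log2 3.58 ± 0.245, Smad7 log2 2.78 ± 0.196). Smad1 was higher in lymphatic endothelial nuclei (log2 3.49 ± 0.12; 525 to 816 CPM under the relative gate) together with Tgfbr2 (log2 1.41 ± 0.149) and Smad5 (log2 1.37 ± 0.208). Smad3, the TGF-beta branch effector, was higher in T and NK nuclei (log2 1.44 ± 0.19). Acvrl1, Bmpr2 and, below, Ltbp3, Grem1 and Nog were named after their values were seen.

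Matrix and secreted regulators led in progenitors, adipocytes, mesothelial and endothelial nuclei. Bmper, which binds BMPs outside the cell, had the largest progenitor fold of any member (log2 4.60 ± 0.172), followed by Ltbp1 (log2 4.31 ± 0.154), which tethers latent TGF-beta to matrix, and Fstl1 (log2 3.19 ± 0.149), a secreted glycoprotein of the follistatin-like family. Fst, the activin antagonist follistatin, was higher in mesothelial nuclei (log2 3.20 ± 0.31) and progenitors (log2 2.07 ± 0.195). Ltbp2 and Ltbp3 were higher in adipocytes (log2 3.10 ± 0.251 and 2.33 ± 0.101) and Ltbp4 in blood and lymphatic endothelial nuclei (log2 2.35 ± 0.149 and 2.52 ± 0.223). The BMP antagonists Chrdl1 and Bmper were also higher in adipocytes (log2 3.35 ± 0.202 and 2.82 ± 0.182), whereas Grem1 and Nog were near the limit of detection, with a mean of at most 1.85 ± 2.78 CPM (SD, n = 9) under the main gate in any of the 8 classes fitted. Mural nuclei were not among these classes, and they held 17 of the 47 Grem1 UMIs in nuclei assigned to a class.

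On HFD, 3 members rose and 13 fell of the 38 tested in macrophages against chow (background 19.4% up and 16.7% down). In progenitors 4 rose and 9 fell of 42 (background 10.3% and 6.36%). In adipocytes 1 rose and 6 fell of 40 (background 9.76% and 4.87%), and in endothelial nuclei 2 rose and 0 fell of 28 (background 2.96% and 0.999%). Read against these backgrounds, the counts that fell lay above the share of all genes in macrophages, progenitors and adipocytes, and the counts that rose lay below it in macrophages and adipocytes and near it in progenitors. The median log2 fold of the members tested was -0.76 in macrophages, -0.37 in progenitors and -0.79 in adipocytes, against 0.05, -0.02 and -0.03 over all genes tested. With the sequencing set as a covariate 17 of the 38 calls held. With age as a block 20 held, where HH has no chow library of its age and the HFD effect is that of H to C. The 18 lost there were Tgfb1, Tgfb2, Bmp7, Smad1, Acvr2b and Fst in progenitors, Eng, Smad1, Smad6, Ltbp4 and Fstl1 in macrophages, Bmp2, Bmpr1b, Tgfbr2, Tgfb3 and Ltbp4 in adipocytes and both endothelial calls. Leaving out H kept 11 and leaving out HH kept 10. The calls that held in each of the 7 leave-outs were Gdf15, Tgfbr1, Tgfbr2, Tgfbr3, Bmpr1a, Acvr1c, Smad3 and Chrdl1 in macrophages and Gdf15 and Acvr1c in progenitors.

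Gdf15, a divergent member of the family known as a circulating stress signal that acts in the brainstem, had the largest rise in macrophages. Its macrophage level was 0.589, 0 and 0 CPM in C, CC and CCC, 102 and 69.9 in H and HH, 3.67 and 19.4 in HC and HHC, and 2.26 and 20.9 in CCH and HCH. The HFD libraries did not overlap the chow libraries, HHC and HCH lay between, and HC was close to CCH. The H and HH macrophages held 1427 and 798 Gdf15 UMIs against 2, 0 and 0 in the chow libraries. The log2 ratio of H to C was 7.44 (95% interval 5.58 to 10.48), that of HH to C 6.89 (95% interval 5.03 to 9.94) within the same sequencing set, and that of HH to CC at least 4.19 at the limit of 3 counts in CC. The rise passed edgeR at an adjusted p of 0.000818, and the fitted fold is not given as a bound because CC and CCC were at 0.

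Within macrophages, Gdf15 was split further by subtype. Lipid-associated macrophages (LAM), which gather around dying adipocytes in obesity, were gated on at least 2 UMIs of Gpnmb, Trem2, Atp6v0d2 and Mmp12, and perivascular macrophages (PVM) on Lyve1, Cd163, F13a1 and Cd209f. LAM nuclei numbered 22, 1 and 18 in the chow libraries C, CC and CCC, and 34 in CCH. There were 4391 and 3800 of them in H and HH, 667 and 2693 in HC and HHC, and 1104 in HCH. In LAM, Gdf15 stood at 113 and 77.6 CPM in H and HH, 5.09 and 21.6 in HC and HHC, and 14.1 and 37.8 in CCH and HCH, with 0 UMIs in the few LAM nuclei of each chow library. In PVM it stood at 0.617, 0 and 0 CPM in C, CC and CCC, 30.5 and 38.8 in H and HH, 0 and 5.95 in HC and HHC, and 1.8 and 5.44 in CCH and HCH. Over the 7 libraries with at least 20 nuclei of both, Gdf15 was higher in LAM than in PVM in 6 of 7 (log2 1.71 ± 0.208, adjusted p = 2.35e-06, edgeR), and H and HH were also the highest libraries within PVM. The HFD rise within PVM had an edgeR adjusted p of 0.00434. A PVM nucleus needed more UMIs of its own list than of the LAM list, so it could also hold LAM marker UMIs. The part of LAM RNA in the PVM levels, here and below, was not tested.

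Tgfbr1, the type I receptor for TGF-beta, rose in macrophages on HFD and stayed raised after weight loss. Its macrophage level was 102, 81.9 and 128 CPM in C, CC and CCC, 296 and 339 in H and HH, 298 and 385 in HC and HHC, and 105 and 273 in CCH and HCH. The chow libraries and CCH were low and H, HH, HC, HHC and HCH were high without overlap. The HFD log2 fold was 1.45 ± 0.193, adjusted p = 0.00138 and the weight-loss log2 fold was 1.68 ± 0.194, adjusted p = 0.00151, in edgeR. Both calls held in each of the 7 fits that left out a library and with the sequencing set as a covariate. The log2 ratio was 1.53 (95% interval 1.37 to 1.70) for H to C, 1.86 (95% interval 1.499 to 2.25) for HC to CC, 1.58 (95% interval 1.31 to 1.87) for HHC to CCC and 1.38 (95% interval 1.24 to 1.51) for HCH to CCH, each within a sequencing set.

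The Tgfbr1 level differed between the macrophage subtypes in the libraries with at least 20 nuclei of both. In LAM of these libraries it was 375 CPM in C, 320.2 and 379.8 in H and HH, 342 and 418 in HC and HHC, and 410 and 414 in CCH and HCH. In PVM it was 94.1, 82.2 and 111 CPM in C, CC and CCC, 124 and 168 in H and HH, 169.6 and 169.7 in HC and HHC, and 97.5 and 140 in CCH and HCH. The few LAM nuclei of C and CCH had levels above those of H. LAM exceeded PVM in 7 of 7 libraries tested (log2 1.33 ± 0.0947, adjusted p = 2.13e-09, edgeR). Within a subtype, against chow, the HFD log2 fold was 0.21 ± 0.401, adjusted p = 0.832 in LAM and 0.502 ± 0.198, adjusted p = 0.112 in PVM, and the weight-loss log2 fold was 0.47 ± 0.4, adjusted p = 0.705 and 0.82 ± 0.2, adjusted p = 0.129, none of which passed in edgeR. The LAM fit against chow set no minimum of nuclei, and the chow library CC held 1 LAM nucleus. It therefore cannot show whether the level changed within LAM. How much of the class difference came from the number of LAM nuclei was not tested.

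Tgfbr2, the type II partner, moved the other way. Its macrophage level was 339, 572 and 508 CPM in C, CC and CCC, 188 and 217 in H and HH, 349.7 and 292 in HC and HHC, and 344 and 314 in CCH and HCH. H and HH lay below every other library (HFD log2 -1.38 ± 0.26, adjusted p = 0.00507, edgeR). It was lower in LAM than in PVM in each of the 7 libraries (log2 -1.41 ± 0.104, adjusted p = 3.95e-09, edgeR). Bmp2, an osteogenic ligand, showed the same contrast of subtypes, at 0 to 4.49 CPM in LAM of the 6 libraries with any HFD and 15.1 to 39.7 CPM in PVM (log2 -3.13 ± 0.213, adjusted p = 1.27e-09, edgeR). In the class as a whole Bmp2 stood at 16.5, 28.1 and 13.2 CPM in C, CC and CCC, 5.5 and 6.57 in H and HH, 8.87 and 7.1 in HC and HHC, and 19.98 and 21.02 in CCH and HCH. It fell on HFD (log2 -1.81 ± 0.398, adjusted p = 0.00912, edgeR), a call lost with the sequencing set as a covariate. The LAM nuclei of each library are counted above for Gdf15. How much of the Tgfbr2 and Bmp2 falls in the class came from the number of LAM nuclei was not tested. Of 35 members tested between the subtypes, 5 were higher in LAM (background 5.11%) and 2 lower (background 5.37%) at a log2 fold over 1. The other 3 higher were Smad7 (log2 1.46 ± 0.253, adjusted p = 0.000137), Bmpr1b (log2 1.38 ± 0.247, adjusted p = 0.000189) and Tgfb2 (log2 1.24 ± 0.32, adjusted p = 0.005). Each of the 7 fits that left out a library gave the same counts of 5 and 2. Tgfbr2 qualified by the naming rule but fell outside its limit of 30 genes and is named for its LAM contrast.

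**Figure D2:**
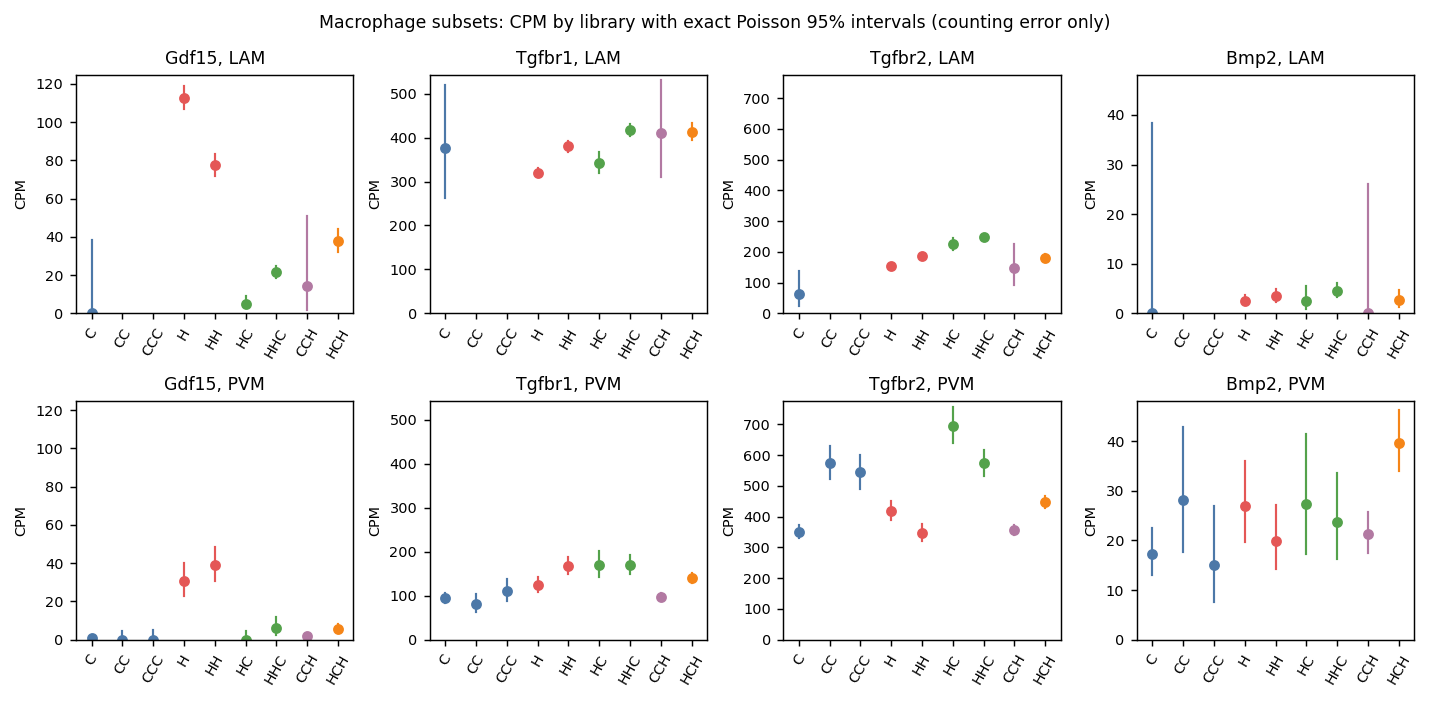
CPM of Gdf15, Tgfbr1, Tgfbr2 and Bmp2 in LAM (top row) and PVM (bottom row) nuclei by library, with points for the level, bars for the exact Poisson 95% interval of counting, and colours for chow, HFD, weight loss and both groups with late HFD; LAM of CC and CCC is not drawn, with fewer than 20 nuclei. Tgfbr1 is higher and Tgfbr2 and Bmp2 are lower in LAM than in PVM in each library drawn, while Gdf15 is highest in H and HH in both rows.

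Smad3, which relays TGF-beta and activin signals, fell in macrophages on HFD. Its level was 89.2, 159.9 and 151 CPM in C, CC and CCC, 33.6 and 42.8 in H and HH, 122 and 81.3 in HC and HHC, and 89.7 and 49.8 in CCH and HCH. The HFD libraries H and HH were the lowest, with HCH next (log2 -1.94 ± 0.331, adjusted p = 0.00352, edgeR). The call held in each of the 7 leave-outs and with the set as a covariate, and within PVM the log2 fold was -1.64 ± 0.347, adjusted p = 0.017 in edgeR. Adipocyte marker RNA in macrophages, multiplied by the adipocyte level of Smad3, would give 4.19 to 37.6 CPM in the chow libraries, and progenitor marker RNA 10.2 to 13.7 CPM, against the measured 89.2 to 159.9 CPM. Their part in the fall was not tested.

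Smad1, an effector of the BMP branch, and Eng fell in macrophages as well (log2 -0.75 ± 0.184, adjusted p = 0.0141 and -0.95 ± 0.221, adjusted p = 0.0112, edgeR), both also with the set as a covariate. Smad1 stood at 105, 89.5 and 113 CPM in C, CC and CCC, 66.5 and 69.96 in H and HH, 94.5 and 90.8 in HC and HHC, and 85.004 and 71.2 in CCH and HCH. Eng stood at 48.3, 43.5 and 56.4 CPM in C, CC and CCC, 28.7 and 28.4 in H and HH, 47.996 and 42.6 in HC and HHC, and 36.8 and 33.9 in CCH and HCH. The endothelial markers in macrophages, as a share of their endothelial level, were 1.4%, 3.76% and 1.07% in C, CC and CCC, 0.315% and 0.42% in H and HH, 2.06% and 1.23% in HC and HHC, and 0.76% and 0.891% in CCH and HCH. That share times the endothelial level of Eng gives 6.05, 16.3 and 10.4 CPM in C, CC and CCC, 1.93 and 2.3 in H and HH, 9.81 and 9.92 in HC and HHC, and 4.22 and 4.43 in CCH and HCH, below the measured level in each of the 9 libraries, and its part in the fall was not tested. Fstl1 rose (log2 0.75 ± 0.243, adjusted p = 0.0406, edgeR) at 21.6 to 26.9 CPM in chow and 43.8 and 51.7 CPM in H and HH, a level that the progenitor marker RNA in macrophages times the progenitor level of Fstl1 would reach (60.1 and 81.9 CPM), and its part in the rise was not tested. The Fstl1 call was lost with the set as a covariate and in all but 2 of the 7 leave-outs. Ltbp4 fell (log2 -0.88 ± 0.276, adjusted p = 0.0354, edgeR), a call lost with the set as a covariate.

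The remaining members that fell in macrophages were Acvr1c, Chrdl1, Bmpr1a, Tgfbr3, Bmper, Bmp6 and Smad6, all at their highest in other classes. Of the falls given above, those of Tgfbr2, Smad3, Smad1, Eng and Ltbp4 were also in genes highest in other classes. Bmp2 was highest in macrophages. In macrophages Acvr1c stood at 91.3, 224 and 34.8 CPM in C, CC and CCC, 3.64 and 5.17 in H and HH, 57.2 and 17.7 in HC and HHC, and 36.6 and 16.6 in CCH and HCH. In progenitors it stood at 90.3, 209 and 32.1 CPM in C, CC and CCC, 4.66 and 5.9 in H and HH, 53.1 and 21.1 in HC and HHC, and 38.9 and 20.7 in CCH and HCH. It fell in both classes (log2 -4.89 ± 0.88, adjusted p = 0.00419 and -4.57 ± 0.79, adjusted p = 0.00718, edgeR). H and HH were the lowest and CC the highest in both. The summed adipocyte markers in macrophage nuclei moved with it: as a share of their level in adipocytes they were 10.2%, 22.9% and 11.3% in C, CC and CCC, 2.47% and 3.11% in H and HH, 8.05% and 7.11% in HC and HHC, and 8.66% and 5.17% in CCH and HCH. In progenitors they were 5.6%, 18.95% and 8.96% in C, CC and CCC, 1.47% and 2.12% in H and HH, 6.82% and 5.51% in HC and HHC, and 4.55% and 3.87% in CCH and HCH. In macrophages that share times the adipocyte level of Acvr1c gives 150.1, 237 and 78.1 CPM in C, CC and CCC, 19.7 and 23.6 in H and HH, 62.03 and 50.03 in HC and HHC, and 98.1 and 41.5 in CCH and HCH, above the measured level in each of the 9 libraries. In progenitors it gives 82.7, 196 and 61.8 CPM in C, CC and CCC, 11.7 and 16.1 in H and HH, 52.6 and 38.8 in HC and HHC, and 51.6 and 31.1 in CCH and HCH, above the measured level in 6 libraries and below it in C, CC and HC.

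**Figure D3:**
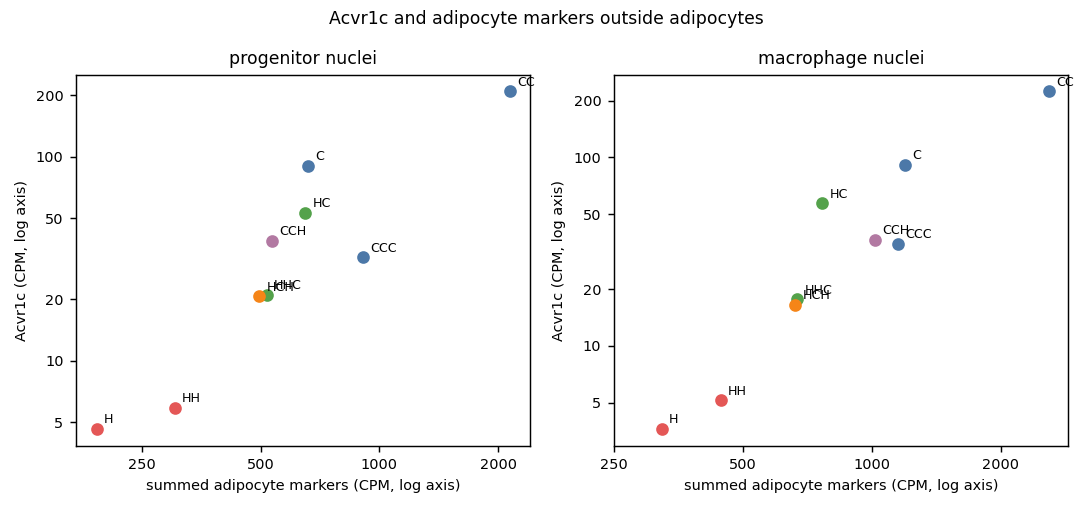
Acvr1c CPM (vertical, log axis) against the summed CPM of the adipocyte markers (horizontal, log axis) in progenitor and in macrophage nuclei, 1 point per library with colours by diet. In both classes H and HH lie at the lower left and CC at the upper right.

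Bmpr1a in macrophages was measured at 66.2, 90.8 and 39.6 CPM in C, CC and CCC, 13.1 and 13.7 in H and HH, 45.9 and 36.2 in HC and HHC, and 44.9 and 19.97 in CCH and HCH (HFD log2 -2.46 ± 0.369, adjusted p = 0.00213, edgeR). The adipocyte marker share gives 56.6, 60.7 and 39.9 CPM in C, CC and CCC, 12.1 and 15.8 in H and HH, 23.4 and 30.5 in HC and HHC, and 47.4 and 20.6 in CCH and HCH, so the measured level was the higher in 5 of the 9 libraries. Chrdl1 in macrophages ran from 2.14 CPM in H to 60.1 CPM in CC, against 4.27 to 100.2 CPM from the share (HFD log2 -3.56 ± 0.636, adjusted p = 0.00414, edgeR). For the remaining 4 the HFD log2 fold was -2.29 ± 0.424 for Tgfbr3, -2.23 ± 0.644 for Bmper, -2.96 ± 0.664 for Bmp6 and -2.58 ± 0.791 for Smad6. The calls of Bmper, Bmp6 and Smad6 were lost with the set as a covariate. Bmp6 and Smad6 were at their highest in endothelial nuclei, and the endothelial share gives 14.2, 42.5 and 21.7 CPM in C, CC and CCC, 3.55 and 5.34 in H and HH, 24.9 and 20.6 in HC and HHC, and 13.6 and 14.8 in CCH and HCH for Bmp6, measured at 13.5, 35.8 and 6 CPM in C, CC and CCC, 2.36 and 2.71 in H and HH, 19.6 and 10.9 in HC and HHC, and 9.99 and 7.59 in CCH and HCH. The part of adipocyte, progenitor or endothelial RNA in these falls was not tested. Bmp6 and Tgfbr3 also lay outside the limit of 30 named genes and are given because they complete the 16 macrophage calls.

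In progenitors some secreted and matrix regulators rose on HFD and others fell. Fst stood at 27.2, 27.5 and 23.6 CPM in C, CC and CCC, 51.95 and 64.1 in H and HH, 36.4 and 39.9 in HC and HHC, and 15.4 and 37.8 in CCH and HCH. H and HH lay above the chow libraries without overlap, and it rose (log2 0.92 ± 0.217, adjusted p = 0.021, edgeR). The call was lost with the set as a covariate (log2 0.83 ± 0.253, adjusted p = 0.076). Within the S075 set the log2 ratio was 0.93 (95% interval 0.63 to 1.24) for H to C and 1.24 (95% interval 0.95 to 1.53) for HH to C. After renewed HFD it was 1.29 (95% interval 0.97 to 1.63) for HCH to CCH, with CCH the lowest library of the 9.

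Ltbp2, a matrix protein of the latent binding protein family that does not bind latent TGF-beta itself, rose in progenitors at 4.4, 3.44 and 7.86 CPM in C, CC and CCC, 22.4 and 17.7 in H and HH, 10.8 and 15.5 in HC and HHC, and 6.84 and 8.24 in CCH and HCH (log2 1.71 ± 0.351, adjusted p = 0.0131, edgeR), also with the set as a covariate. Ltbp1, which does bind it, stood at 799.7, 771 and 1077 CPM in C, CC and CCC, 566 and 552 in H and HH, 811 and 645 in HC and HHC, and 910 and 781 in CCH and HCH. It fell (log2 -0.88 ± 0.216, adjusted p = 0.024, edgeR), with H and HH the lowest of the 9 libraries and HHC next. The Ltbp1 call was lost with the set as a covariate.

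Fstl1, in contrast, was not called in progenitors as a class. Its level was 656, 529 and 712 CPM in C, CC and CCC, 1060.2 and 865 in H and HH, 509.6 and 613 in HC and HHC, and 1058 and 777 in CCH and HCH. H, CCH and HH were the highest and HC and CC the lowest (HFD log2 0.38 ± 0.187, adjusted p = 0.186, edgeR). Bmper stood at 779.6, 999 and 1155 CPM in C, CC and CCC, 1508 and 1216 in H and HH, 2051 and 1774 in HC and HHC, and 626 and 1062 in CCH and HCH. Both weight-loss libraries were the highest and CCH the lowest. Its log2 ratio was 1.04 (95% interval 0.93 to 1.14) for HC to CC and 0.62 (95% interval 0.55 to 0.69) for HHC to CCC, and the weight-loss log2 fold was 0.94 ± 0.211, adjusted p = 0.0672 in edgeR. Smad3 was likewise highest after weight loss, at 244, 225 and 265 CPM in C, CC and CCC, 227 and 168 in H and HH, 439 and 317 in HC and HHC, and 180.3 and 155 in CCH and HCH. HCH was lowest (weight-loss log2 0.59 ± 0.23, adjusted p = 0.273, edgeR).

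Among progenitor ligands, Bmp6 stood at 226, 194 and 229 CPM in C, CC and CCC, 153 and 106 in H and HH, 121 and 115 in HC and HHC, and 383 and 223 in CCH and HCH. It fell on HFD (log2 -0.97 ± 0.217, adjusted p = 0.0177, edgeR), also with the set as a covariate. CCH, with 4 weeks of first HFD, was the highest library and HH the lowest. The endothelial markers in progenitors, as a share of their endothelial level, were 2.73%, 4.72% and 3.36% in C, CC and CCC. They were 1.66% and 1.58% in H and HH, 3.3% and 2.57% in HC and HHC, and 3.46% and 2.74% in CCH and HCH. Their part in the Bmp6 fall was not tested. Bmp7 stood at 11.7, 14.9 and 13.8 CPM in C, CC and CCC, 5.2 and 5.61 in H and HH, 5.81 and 6.41 in HC and HHC, and 18.9 and 8.74 in CCH and HCH. It fell (log2 -1.51 ± 0.327, adjusted p = 0.0153, edgeR), with HC and HHC at the level of H and HH and no overlap of these 4 with the chow libraries. Its weight-loss log2 fold was -1.16 ± 0.337, adjusted p = 0.142 in edgeR. Both Bmp6 and Bmp7 differed between the 2 kinds of progenitor set apart below. The part of the numbers of these kinds in both falls was not tested. Tgfb1 stood at 18.4, 17.2 and 19.7 CPM in C, CC and CCC, 37.8 and 34.1 in H and HH, 33.7 and 34.8 in HC and HHC, and 13.7 and 32.5 in CCH and HCH. It rose on HFD (log2 0.73 ± 0.217, adjusted p = 0.046, edgeR), with HC and HHC near HH. The Bmp7 and Tgfb1 calls were lost with the set as a covariate.

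The summed macrophage markers in progenitor nuclei moved with Tgfb1: as a share of their level in macrophages they were 1.93%, 2.73% and 2.52% in C, CC and CCC, 14.2% and 12.7% in H and HH, 8.74% and 17.6% in HC and HHC, and 1.67% and 7.28% in CCH and HCH. The same share times the macrophage level of Tgfb1 gives 18.2 CPM in H, 16.1 in HH, 14.1 in HC and 27.5 in HHC, below the measured level in each. The share was lower in chow, so these levels do not give its part in the rise. Gdf15 also rose in progenitors (edgeR adjusted p = 0.00395), at 0.628, 0 and 0.655 CPM in C, CC and CCC, 14.9 and 13.2 in H and HH, 1.94 and 5.59 in HC and HHC, and 0.728 and 3.12 in CCH and HCH. There the macrophage share gives 14.5 CPM in H and 8.88 in HH. Under a stricter gate the HH to CC ratio of Gdf15 in progenitors could only be bounded, at a log2 of at least -1.61, which gives no direction. The part of macrophage RNA in either rise was not tested.

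Also lower in progenitors on HFD were the receptors Bmpr1b (log2 -1.11 ± 0.287) and Acvr2b (log2 -1.30 ± 0.357), the effector Smad1 (log2 -0.65 ± 0.184), the ligand Tgfb2 (log2 -0.66 ± 0.203) and the antagonist Chrdl1 (log2 -1.21 ± 0.349). These 5 calls were lost with the set as a covariate, and that of Tgfb2 was also lost in each of the 7 leave-outs. Chrdl1 stood at 75.8, 122 and 53.7 CPM in C, CC and CCC, 44.6 and 38.97 in H and HH, 20.5 and 37.9 in HC and HHC, and 46.6 and 65.03 in CCH and HCH. The adipocyte marker share in progenitors, given above for Acvr1c, times the adipocyte level of Chrdl1 gives 55.2, 32.6 and 17.98 CPM in C, CC and CCC, 2.54 and 2.92 in H and HH, 11.6 and 23.9 in HC and HHC, and 17.6 and 8.09 in CCH and HCH, below the measured level in each library, and its part in the fall was not tested. Smad1 stood at 113, 108 and 127 CPM in C, CC and CCC, 88.9 and 84.1 in H and HH, 99.1 and 103 in HC and HHC, and 125 and 91.7 in CCH and HCH. Tgfb2 stood at 108, 88.3 and 104 CPM in C, CC and CCC, 80.98 and 68.3 in H and HH, 80.9 and 81.5 in HC and HHC, and 100.4 and 80.1 in CCH and HCH. Acvr2a, an activin type II receptor named after its values were seen, was at 211, 157 and 159.9 CPM in C, CC and CCC, 359 and 259.5 in H and HH, 269 and 284 in HC and HHC, and 198 and 229 in CCH and HCH. The chow libraries and CCH were low and H was highest (HFD log2 0.57 ± 0.22, adjusted p = 0.0988, edgeR).

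**Figure D4:**
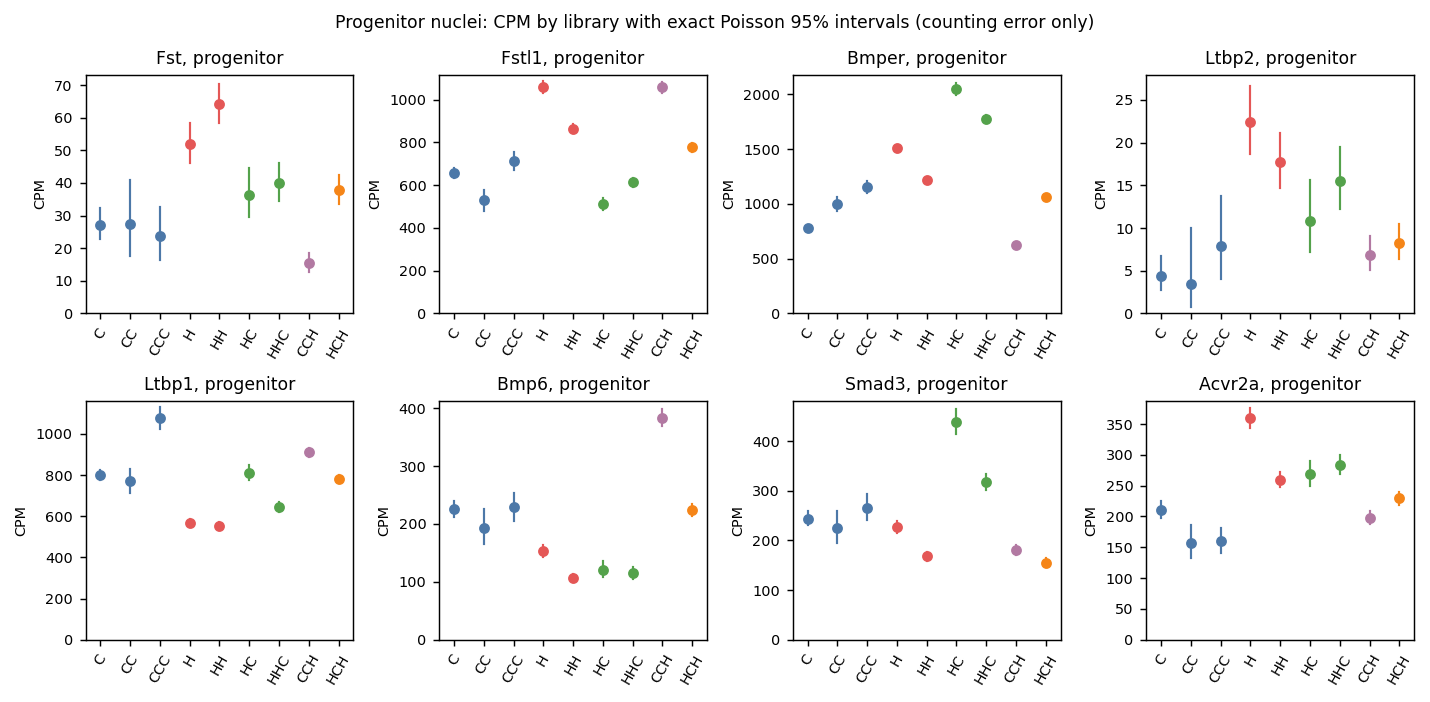
CPM of Fst, Fstl1, Bmper, Ltbp2, Ltbp1, Bmp6, Smad3 and Acvr2a in progenitor nuclei by library, with points for the level, bars for the exact Poisson 95% interval of counting and colours by diet. Fst and Ltbp2 are higher and Ltbp1 and Bmp6 are lower in H and HH than in the 3 chow libraries, and Bmper and Smad3 are highest in HC and HHC.

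By a further gate 2 kinds of progenitor were set apart. The other progenitors had no UMIs of the FIP markers named next, and nuclei between the 2 rules were in neither kind. Over the libraries 6202 nuclei were FIP and 5511 other progenitors, of 14365 in the class. Per library there were 136 to 1255 FIP and 56 to 1599 other progenitors. Fibro-inflammatory progenitors (FIP), gated on at least 2 UMIs of Dpp4, Pi16, Sema3c and Anxa3, differed from the other progenitors in 2 members higher (background 2.38%) and 1 lower (background 0.912%) of 39 tested at a log2 fold over 1. Bmp7 was higher in FIP in 9 of 9 libraries (log2 3.41 ± 0.287, adjusted p = 4.42e-08, edgeR), at 11.6 to 25.8 CPM against 0 to 3.66 in the other progenitors. Bmp6 was higher in 9 of 9 (log2 2.05 ± 0.0982, adjusted p = 1.53e-11), at 205 to 498 CPM against 45.4 to 115. Bmper was lower (log2 -1.06 ± 0.0548, adjusted p = 4.44e-11), with 462 to 1316 CPM in FIP and 1084 to 2427 CPM in the others. A further 6 members were higher in FIP and 6 lower at an adjusted p under 0.05 with a smaller fold, of 39 tested (background 7.5% higher and 7.48% lower). The 6 higher were Chrdl1 (log2 0.85 ± 0.229, adjusted p = 0.012), Tgfb2 (log2 0.80 ± 0.124, adjusted p = 8.09e-05), Fstl1 (log2 0.78 ± 0.0728, adjusted p = 1.67e-07), Tgfbr2, Tgfbr3 and Bmpr2. The 6 lower were Gdf10 (log2 -0.80 ± 0.112, adjusted p = 2.57e-05), Smad3 (log2 -0.48 ± 0.0784, adjusted p = 0.000148), Bmp5, Acvr2a, Acvr1b and Tgfb1, all in edgeR.

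The diet effect on Fst was also called within FIP (log2 0.89 ± 0.253, adjusted p = 0.0398, edgeR), and that on Fstl1 within the other progenitors (log2 0.66 ± 0.199, adjusted p = 0.0453, edgeR). Ltbp1 fell within both kinds (log2 -0.77 ± 0.201, adjusted p = 0.0296 in FIP and -0.88 ± 0.261, adjusted p = 0.0426 in the others). Bmpr1b fell in the other progenitors (log2 -2.73 ± 0.409, adjusted p = 0.00238, edgeR), where it stood at 83.98, 109 and 45.6 CPM in C, CC and CCC, 8.48 and 17.2 in H and HH, 29.3 and 31.1 in HC and HHC, and 62.02 and 34.5 in CCH and HCH. In progenitors as a class the summed epithelial markers were 33.7, 30.96 and 13.8 CPM in C, CC and CCC, 9.14 and 5.61 in H and HH, 74.4 and 6.83 in HC and HHC, and 14.4 and 18.1 in CCH and HCH, the adipocyte marker share fell as given above, and their part in the Bmpr1b fall was not tested. Whether these effects differ between the 2 kinds was not tested.

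In adipocytes 1 member rose on HFD and 6 fell, with the fewest adipocyte nuclei in H (179) and HHC (280). Fstl1 stood at 20.6, 42.4 and 61.1 CPM in C, CC and CCC, 151 and 236 in H and HH, 32.3 and 101 in HC and HHC, and 35.6 and 82.4 in CCH and HCH. It rose (log2 2.14 ± 0.477, adjusted p = 0.0265, edgeR), also with the set as a covariate, with H and HH above the other libraries. The progenitor marker share times the progenitor level would give 46.2 CPM in H and 54.6 in HH, below the measured levels. It would give 47.8 in C, above the measured one, and would also lie above the measured level in CC, HC and CCH. Its part in the rise was not tested. The log2 ratio was 2.88 (95% interval 2.55 to 3.20) for H to C and 0.72 (95% interval 0.40 to 1.04) for HHC to CCC.

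Bmpr1b fell in adipocytes (log2 -3.14 ± 0.872, adjusted p = 0.0466, edgeR) at 23.5, 104 and 90.6 CPM in C, CC and CCC, 19.1 and 2.23 in H and HH, 8.51 and 6.66 in HC and HHC, and 12.7 and 6.87 in CCH and HCH. Here CC and CCC were high and C lay near H. The call was lost with the set as a covariate, and the log2 ratio within the S075 set was -0.30 (95% interval -1.16 to 0.45) for H to C and -3.40 (95% interval -5.29 to -2.03) for HH to C. In the weight-loss pairs, which lie within the S019 set, it was -3.61 (95% interval -4.20 to -3.07) for HC to CC and -3.77 (95% interval -4.91 to -2.82) for HHC to CCC. The summed epithelial markers in adipocytes stood at 26.3, 61.3 and 70.01 CPM in C, CC and CCC, 10.2 and 3.89 in H and HH, 68.7 and 3.7 in HC and HHC, and 13.9 and 9.62 in CCH and HCH, and their part in the fall was not tested. Tgfbr2 fell (log2 -1.24 ± 0.26, adjusted p = 0.0227, edgeR) at 85.7, 117 and 111 CPM in C, CC and CCC, 53.4 and 44.5 in H and HH, 121 and 91.8 in HC and HHC, and 67.7 and 68.02 in CCH and HCH. Smad1 fell (log2 -1.31 ± 0.272, adjusted p = 0.022, edgeR) at 59.1, 79.9 and 65.1 CPM in C, CC and CCC, 29.3 and 31.2 in H and HH, 65.2 and 53.3 in HC and HHC, and 51.8 and 49.5 in CCH and HCH. Both held with the set as a covariate, and in both the weight-loss libraries lay nearer to chow than H and HH did.

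Bmp2, Tgfb3 and Ltbp4 also fell in adipocytes (log2 -3.60 ± 1, -1.75 ± 0.43 and -1.61 ± 0.435), calls lost with the set as a covariate. Bmp2 rested on few counts, with 0 UMIs in H and 1 in HH. Bmp3 was not called by edgeR (log2 2.004 ± 0.623, adjusted p = 0.061) and stood at 4.5, 8.64 and 27.4 CPM in C, CC and CCC, 66.2 and 46.2 in H and HH, 24.7 and 54.8 in HC and HHC, and 17.7 and 43.97 in CCH and HCH, lowest in C and highest in H. It was higher by the 2-fold rule in H to C, HH to CC, HC to CC and HCH to CCH, and its log2 ratio of HHC to CCC was 0.999 (95% interval 0.55 to 1.45). Inhbb, the activin B subunit that adipocytes are known to make, stood at 1.33, 10.2 and 11.7 CPM in C, CC and CCC, 26.7 and 27.3 in H and HH, 10.9 and 30.4 in HC and HHC, and 6.37 and 15.8 in CCH and HCH. C was the lowest and HHC, H and HH the highest (HFD log2 1.76 ± 0.742, adjusted p = 0.127, edgeR).

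The C adipocytes stood apart from those of the other chow libraries for several members. Chrdl1 stood at 986, 172 and 201 CPM in C, CC and CCC, 173 and 137 in H and HH, 170 and 434 in HC and HHC, and 386 and 209 in CCH and HCH. Tgfbr3 stood at 1427, 587 and 648 CPM in C, CC and CCC, 429 and 477 in H and HH, 723 and 892 in HC and HHC, and 744 and 488 in CCH and HCH. Smad3 stood at 41.3, 165 and 145 CPM in C, CC and CCC, 63.6 and 56.2 in H and HH, 264 and 134 in HC and HHC, and 74.4 and 104 in CCH and HCH. C was the highest of the 9 for Chrdl1 and Tgfbr3 and the lowest for Smad3. The Chrdl1 log2 ratio was -2.51 (95% interval -2.77 to -2.27) for H to C and -0.32 (95% interval -0.53 to -0.12) for HH to CC, and that of Smad3 was 0.62 (95% interval 0.18 to 1.05) and -1.55 (95% interval -1.86 to -1.25).

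Endothelial nuclei had 2 members that rose on HFD. Ltbp4 stood at 222, 232 and 259.9 CPM in C, CC and CCC, 466 and 499 in H and HH, 131 and 196 in HC and HHC, and 286 and 394 in CCH and HCH, with H and HH the highest. Fstl1 stood at 137, 73.4 and 156 CPM in C, CC and CCC, 280 and 308 in H and HH, 114 and 159.9 in HC and HHC, and 243 and 301 in CCH and HCH, with HH, HCH and H the highest (log2 1.01 ± 0.256, adjusted p = 0.0499 and 1.22 ± 0.302, adjusted p = 0.0452, edgeR). Both lay close to the threshold, and neither was kept when any of the 7 libraries was left out. The Ltbp4 call was also lost under each of the 10 other settings tried and the Fstl1 call under all but 4 of them, both with the sequencing set as a covariate. The progenitor markers in endothelial nuclei moved with Fstl1: as a share of their progenitor level they were 4.06% to 8.91% in chow and 9.38% and 14.5% in H and HH, and 16.05% in HCH. That share times the progenitor level of Fstl1 gives 58.5, 43.6 and 28.9 CPM in C, CC and CCC, 99.4 and 125 in H and HH, 46.9 and 53.1 in HC and HHC, and 74.2 and 125 in CCH and HCH, below the measured level in each of the 9 libraries, and its part in the rise was not tested. The Ltbp4 effect was positive in endothelial nuclei and negative in adipocytes, and the difference of the HFD effects was tested as an interaction: it was log2 2.36 ± 0.458 (adjusted p = 0.0283, edgeR), the only member past the threshold of 37 tested (background 0.999%). In adipocytes the endothelial markers were 0.78%, 3.33% and 2.29% in C, CC and CCC, and 0.42% and 0.543% in H and HH of their endothelial level, and the progenitor markers 7.28%, 8.38% and 8.25% in C, CC and CCC, and 4.36% and 6.32% in H and HH of their progenitor level. Their part in the adipocyte fall and in the interaction was not tested. Under the relative gate 1 member rose and 4 fell in endothelial nuclei (background 3.16% and 1.78%), Fstl1 up (log2 1.07 ± 0.266, adjusted p = 0.0453) and Acvr1c, Bmpr1b, Bmpr1a and Chrdl1 down, 4 genes with their highest levels in adipocytes, mesothelial or epithelial nuclei. Under that gate the adipocyte markers in endothelial nuclei were 7.42% to 24.3% of their adipocyte level in chow and 2.41% to 3.35% in H and HH, and their part in these falls was not tested.

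**Figure D5:**
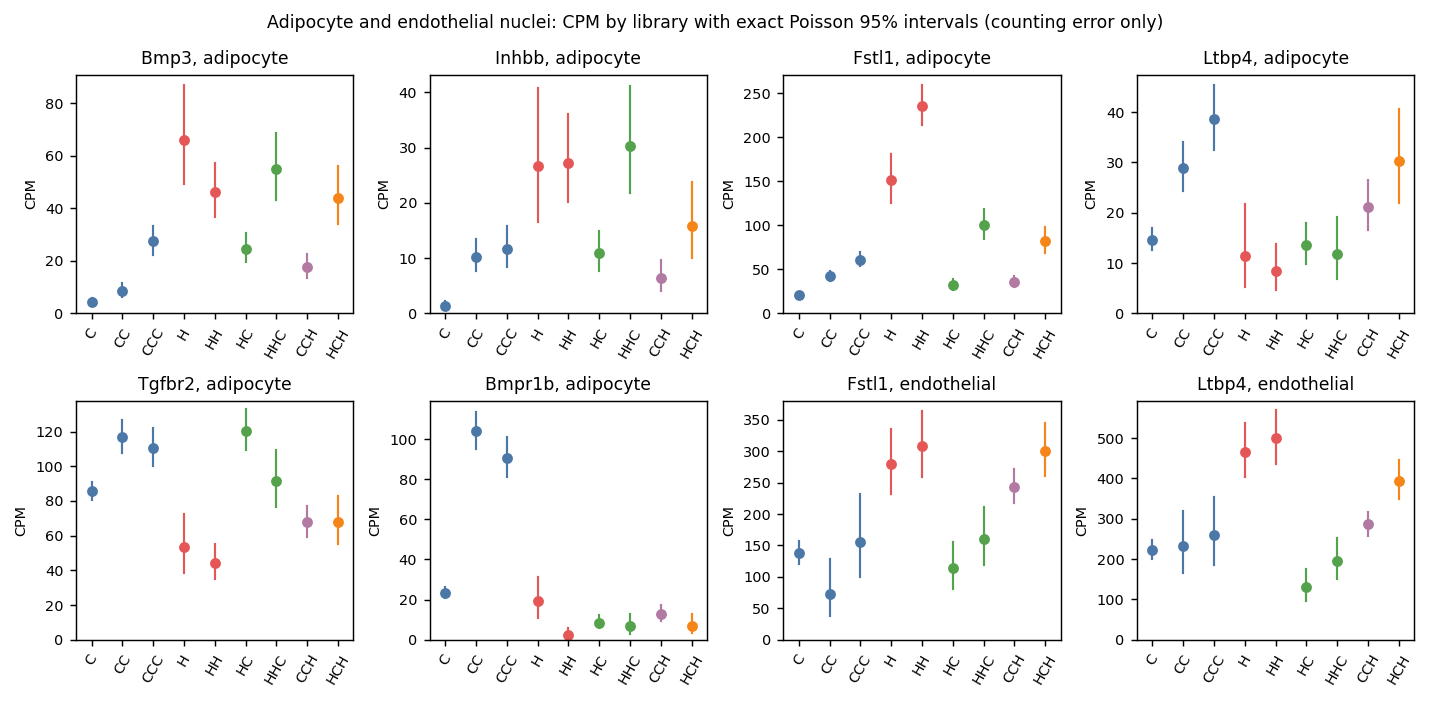
CPM by library of Bmp3, Inhbb, Fstl1, Ltbp4, Tgfbr2 and Bmpr1b in adipocytes and of Fstl1 and Ltbp4 in endothelial nuclei, with points for the level, bars for the exact Poisson 95% interval of counting and colours by diet. Fstl1 is higher in H and HH than in chow in both classes, while Ltbp4 is lower in adipocytes and higher in endothelial nuclei of H and HH.

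Endothelial Bmp4 stood at 101, 30.6 and 273 CPM in C, CC and CCC, 227 and 277 in H and HH, 239 and 248 in HC and HHC, and 216 and 195 in CCH and HCH. CC with 5 UMIs and C were the lowest. The log2 ratio was 1.16 (95% interval 0.78 to 1.54) for H to C and 2.97 (95% interval 1.69 to 4.63) for HC to CC, without an edgeR call (log2 0.97 ± 0.503, adjusted p = 0.445). Endothelial Bmp6 ranged from 1015 to 2034 CPM and Eng from 432 to 975 CPM, and neither passed edgeR on HFD (log2 -0.23 ± 0.335, adjusted p = 0.875 and -0.08 ± 0.368, adjusted p = 0.975).

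In mural nuclei 0 genes of any kind passed edgeR on HFD, of 1287 tested under the main gate and 6852 under the relative gate, so 0 of 9 and 0 of 32 members passed. At an unadjusted p under 0.05 there were 0 of 9 members (64 of 1287 genes) and 6 of 32 members (788 of 6852 genes). In mesothelial nuclei 0 of 8 members passed under the main gate (background 1.24% up and 0.726% down), and 0 at an unadjusted p under 0.05 (184 of 1929 genes). Under the relative gate 2 of 35 mesothelial members fell (background 4.02%) and 0 rose (background 6.87%), with 7 at an unadjusted p under 0.05 (2731 of 10933 genes). Mesothelial Ltbp1 stood at 44.2, 63.1 and 58.1 CPM in C, CC and CCC, 12.4 and 12.7 in H and HH, 67.6 and 36.998 in HC and HHC, and 21.3 and 21.7 in CCH and HCH. H and HH were the lowest (log2 -2.15 ± 0.382, adjusted p = 0.00539, edgeR). The other was Acvr1c (log2 -5.86 ± 0.816, adjusted p = 0.0022, edgeR). Under that gate the adipocyte markers in mesothelial nuclei stood at 6.93%, 19.98% and 14.4% in C, CC and CCC, and 1.79% and 2.4% in H and HH of their adipocyte level, and the mural markers at 1.48%, 7.01% and 4.76% in C, CC and CCC, and 1.55% and 0.581% in H and HH of their mural level. The progenitor markers, of the class where Ltbp1 is highest, were 41.97% to 46.4% of their progenitor level in chow and 51.2% and 54.1% in H and HH. The part of these shares in both falls was not tested. Mesothelial Fst ran at 48.1, 15.8 and 94.5 CPM in C, CC and CCC, 137 and 98.4 in H and HH, 16.9 and 54.3 in HC and HHC, and 34.3 and 119 in CCH and HCH. H, HCH and HH were the highest (log2 1.16 ± 0.482, adjusted p = 0.155, edgeR). In mural nuclei Fstl1 stood at 139, 171 and 222 CPM in C, CC and CCC, 576 and 541 in H and HH, 78.96 and 291 in HC and HHC, and 365 and 349 in CCH and HCH. H and HH were the highest (log2 1.52 ± 0.441, adjusted p = 0.252, edgeR). The progenitor markers in mural nuclei moved with it, at 17.5%, 22.8% and 22.7% in C, CC and CCC, 39.3% and 33.1% in H and HH, 13.5% and 28.96% in HC and HHC, and 27.7% and 30.6% in CCH and HCH of their progenitor level, and their part was not tested. The mural class also differed in its own markers: Myh11 stood at 4525 CPM in C and 9095 in HC, and at 526 to 1064 in the other libraries. The part of this difference in the Fstl1 levels was not tested.

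After weight loss the edgeR fit called 2 of 38 members in macrophages, Tgfbr1 and Gdf15, both higher (background 5.46% up, with 3.46% down). Gdf15 had an adjusted p of 0.019, which the set covariate raised to 0.148. That call was also lost without C (adjusted p = 0.147), CC (0.0626), CCC (0.0528) or HHC (0.0779) in edgeR. Of the other classes 0 members passed edgeR. The shares of all genes that passed there were 0.989% up and 0.321% down in progenitors, 0.311% and 0.0135% in endothelial nuclei, 0.311% and 0% in mesothelial nuclei and 0 of 14358 genes in adipocytes. At an unadjusted p under 0.05 there were 15 of 42 members in progenitors (2162 of 15262 genes), 7 of 40 in adipocytes (1600 of 14358), 2 of 28 in endothelial (486 of 7406) and 2 of 8 in mesothelial nuclei (137 of 1929). DESeq2 made 9 calls. In adipocytes it called Bmpr1b lower (background 0.829% up and 1.2% down). In progenitors it called Bmper higher (background 1.87%) and Ltbp4, Bmp6 and Chrdl1 lower (background 1.05%). In macrophages it called Tgfbr1 and Gdf15 higher (background 7.08%) and Bmp2 and Ltbp4 lower (background 5.65%).

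More members passed when each weight-loss library was set against the chow library of its own age, HC with CC and HHC with CCC. This fit had age as a block, was added after the other results were seen, and left 1 residual degree of freedom per gene, so its error rests largely on the spread shared over genes. It made 20 calls of a member in a class. In progenitors 2 rose (background 3.54%) and 7 fell (background 3.08%) of 42. Bmper rose (log2 0.80 ± 0.189, adjusted p = 0.000918, edgeR), as did Acvr2a. The 7 lower were Ltbp4 (log2 -1.16 ± 0.205, adjusted p = 1.07e-06), Gdf10 (log2 -1.27 ± 0.272, adjusted p = 0.000146), Bmp4 (log2 -1.20 ± 0.35, adjusted p = 0.0127, edgeR), Bmp6, Ltbp3, Acvr1c and Chrdl1. In adipocytes 2 rose, Bmp3 and Smad6 (background 2.19%), and 4 fell, Bmpr1b, Bmp7, Ltbp1 and Ltbp4 (background 3.61%), of 40. In macrophages Tgfbr1 and Gdf15 rose (background 6.08%) and Acvr1c, Ltbp4 and Tgfbr2 fell (background 4.98%) of 38. The adipocyte marker shares in progenitors and macrophages, given above for Acvr1c, were also lower in HC than in CC and in HHC than in CCC, and their part in these falls was not tested.

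Single weight-loss pairs held further differences of 2-fold or more. Of members with enough UMIs, HC to CC had 2 higher (background 3.6%) and 7 lower (background 13.4%) of 39 in adipocytes, and HHC to CCC 2 higher (background 5.14%) and 10 lower (background 14.2%) of 38. Lower in both pairs were the ligands Tgfb2, Bmp2, Bmp4, Bmp7 and Gdf10, the receptor Bmpr1b and Ltbp4, where the 5 ligands had 1 to 16 UMIs in each weight-loss library. Markers of other classes in adipocyte nuclei were lower too. The summed progenitor markers were 696 CPM in CC and 442 in HC, and 739 in CCC and 451 in HHC. The endothelial markers were 294, 183, 214 and 82.9 CPM in the same order. Their part in these differences was not tested. In HHC to CCC the Bmp2 log2 ratio could only be bounded at no more than 0.63 under the stricter gate, where HHC was at 0 UMIs, and that of Tgfb2 came to 0.0255 under the relative gate. In progenitors HC to CC had 3 higher (background 7.84%) and 6 lower (background 6.93%) of 39, and HHC to CCC 1 higher (background 10.7%) and 3 lower (background 3.69%) of 42. Bmp4, Bmp7 and Ltbp4 were lower in both. Progenitor Bmp4 stood at 20.3, 24.1 and 33.4 CPM in C, CC and CCC, 17.02 and 26.3 in H and HH, 11.6 and 14.1 in HC and HHC, and 21.4 and 27.7 in CCH and HCH, with HC and HHC the lowest of the 9. Ltbp4 stood there at 124, 166 and 216 CPM in C, CC and CCC, 98.7 and 129.8 in H and HH, 73.2 and 102 in HC and HHC, and 138 and 146 in CCH and HCH.

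In macrophages HC to CC had 2 higher (background 13.1%) and 5 lower (background 11%) of 33, and HHC to CCC 8 higher (background 14.9%) and 3 lower (background 7.57%) of 38. Tgfbr1 and Bmp3 were higher and Ltbp4 lower in both, where Bmp3 rested on 1 UMI in CC and 1 in CCC. The Bmp3 log2 ratio of HHC to CCC was -0.23 with no upper limit on genes and -0.44 under the relative gate, so its direction did not hold. Under the stricter gate Ltbp4 in HC to CC came to 0.0884. In endothelial nuclei HC to CC had 5 higher (background 11.1%) and 2 lower (background 7.28%) of 26, and HHC to CCC 1 higher (background 8.96%) and 0 lower (background 4.08%) of 23. The CC endothelial class held the fewest nuclei of the 9.

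The HFD pairs are given beside these. In macrophages H to C had 2 higher (background 28.4%) and 12 lower (background 12.6%) of 38, and HH to CC 3 higher (background 27.5%) and 14 lower (background 13.1%) of 36. In adipocytes H to C had 6 higher (background 26.3%) and 9 lower (background 7.96%) of 39, and HH to CC 4 higher (background 23.4%) and 16 lower (background 15.1%) of 38. In progenitors both pairs had 4 higher of 42 (background 22.6% and 25.7%), with 4 lower in H to C (background 5.28%) and 5 in HH to CC (background 6.43%). Endothelial nuclei had 3 higher (background 14.3%) and 5 lower (background 7.31%) of 30 in H to C, and 7 higher (background 19.3%) and 3 lower (background 8.13%) of 25 in HH to CC. With C as the control, HH had 3 higher (background 29.7%) and 10 lower (background 11.5%) of 39 in macrophages. It had 7 higher (background 28.1%) and 7 lower (background 9.24%) of 38 in adipocytes. It had 5 higher (background 26.1%) and 4 lower (background 4.51%) of 42 in progenitors. In endothelial nuclei it had 4 higher (background 15.5%) and 5 lower (background 7.68%) of 31, so more members were higher than lower against CC but not against C.

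Renewed HFD after weight loss was compared with a first HFD of the same length, HCH with CCH. In adipocytes 5 members were higher (background 12.4%) and 2 lower (background 3.57%) of 35, in progenitors 3 higher (background 15.1%) and 1 lower (background 1.67%) of 42, in macrophages 4 higher (background 16.5%) and 3 lower (background 3.77%) of 39, and in endothelial nuclei 1 higher (background 10%) and 2 lower (background 3.76%) of 30. Adipocytes of HCH had more Fstl1 (log2 1.21, 95% interval 0.84 to 1.59), Bmp3 (log2 1.32, 95% interval 0.79 to 1.85) and Inhbb (log2 1.31, 95% interval 0.40 to 2.22). The progenitor markers in adipocytes stood at 4.95% and 9.34% in CCH and HCH of their progenitor level, and that share times the progenitor level of Fstl1 gives 52.3 and 72.5 CPM in CCH and HCH, against the measured 35.6 and 82.4 CPM. Its part in the Fstl1 difference was not tested. Macrophages of HCH had more Gdf15 (log2 3.21, 95% interval 2.37 to 4.19) and Inhba, the activin A subunit (log2 3.63, 95% interval 0.99 to 9.005, 20 against 1 UMI), and less Ltbp1 (log2 -1.32, 95% interval -1.56 to -1.08). Progenitors of HCH had more Tgfb1 (log2 1.25, 95% interval 0.90 to 1.60) and Fst, and less Bmp7 (log2 -1.11, 95% interval -1.55 to -0.68).

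The mural and mesothelial classes of the main gate left few members with 20 UMIs in a pair of libraries. In mural nuclei H to C had 4 higher (background 15.8%) and 5 lower (background 17%) of 24. HC to CC had 2 higher (background 5.36%) and 8 lower (background 23.2%) of 29, against the 3 mural nuclei of CC. HH to C had 6 higher (background 14%) and 1 lower (background 17.4%) of 25. HH to CC had 2 higher (background 33.5%) and 0 lower (background 6.56%) of 3, Bmpr1a and Ltbp1. HHC to CCC had the same 2 higher (background 24%) and Tgfbr3 lower (background 18.7%) of 3. HCH to CCH had 0 higher (background 7.75%) and Tgfb2 lower (background 14.1%) of 7. In mesothelial nuclei H to C had Fst higher (background 7.43%) and 5 lower (background 14.7%) of 22, Bmp6, Acvr1c, Acvr2a, Smad2 and Smad5. HCH to CCH had Fst and Bmp6 higher (background 8.45%) and 3 Smads, Smad2, Smad3 and Smad5, lower (background 11.1%) of 23. HH to C had 0 higher (background 8.04%) and 4 lower (background 13.3%) of 22. HH to CC had 0 higher (background 17.5%) and Bmp6 lower (background 8.41%) of 8. HC to CC had 0 higher (background 13.3%) and 0 lower (background 7.79%) of 4, and HHC to CCC had 0 higher (background 9.12%) and 2 lower, Bmpr2 and Chrdl1 (background 16.6%), of 5.

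Of the remaining named members, Gdf10 in progenitors stood at 30.99, 60.8 and 52.4 CPM in C, CC and CCC, 21.5 and 34.2 in H and HH, 20.5 and 26.7 in HC and HHC, and 41.5 and 51.7 in CCH and HCH, with HC and H lowest. Smad2, the other TGF-beta effector, was at 144 to 187 CPM in macrophages and 81.3 to 121 CPM in progenitors, and Smad5 at 47.2 to 64.3 CPM in progenitors, neither called by edgeR in any class. Smad7 in endothelial nuclei was at 94.1, 61.2 and 279.4 CPM in C, CC and CCC, 109 and 204 in H and HH, 105 and 193 in HC and HHC, and 149 and 143 in CCH and HCH (HFD log2 0.20 ± 0.512, adjusted p = 0.947, edgeR). Smad6 was at 134, 48.9 and 338 CPM in C, CC and CCC, 225 and 188 in H and HH, 142 and 196 in HC and HHC, and 223 and 149 in CCH and HCH (log2 0.30 ± 0.49, adjusted p = 0.888). Acvr1, Acvr1b, Acvrl1, Bmpr2, Smad4, Smad9, Ltbp3, Grem1, Nog, Bmp5 and Acvr2a met none of the 3 criteria for naming by diet, among them 0 calls of the main edgeR fit in the 6 classes. The fit with age as a block did call Acvr2a and Ltbp3 in progenitors after weight loss, as given above. Grem1 and Nog had the fewest counts of any members to set against a difference.

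The wider pathway was read from 2 fixed lists. Of 47 other components, 4 rose and 6 fell of 26 tested in macrophages on HFD, 4 rose and 3 fell of 32 in progenitors, 1 rose and 1 fell of 26 in adipocytes and 0 changed of 12 in endothelial nuclei. The backgrounds are those of the member counts: 19.4% up and 16.7% down in macrophages, 10.3% and 6.36% in progenitors, 9.76% and 4.87% in adipocytes, and 2.96% and 0.999% in endothelial nuclei. Their median log2 fold was 0.13 in macrophages, 0.11 in progenitors, 0.07 in endothelial nuclei and -0.501 in adipocytes. Gdf3, a ligand known for effects on adiposity in mice, stood at 0.294, 0 and 0 CPM in C, CC and CCC, 10.6 and 10.3 in H and HH, 4.28 and 7.48 in HC and HHC, and 0.565 and 10.04 in CCH and HCH in macrophage nuclei. It led the rises there (log2 5.44 ± 0.716, adjusted p = 0.0013, edgeR). It was also higher in macrophages after weight loss (log2 4.76 ± 0.761, adjusted p = 0.00599, edgeR), and in progenitors it rose from 0 UMIs in the 3 chow libraries to 21 in H and 33 in HH (adjusted p = 0.0152, edgeR). The macrophage markers in progenitors were 1.93% to 2.73% of their macrophage level in chow and 14.2% and 12.7% in H and HH, and their part in that rise was not tested. Itgav, the integrin chain that takes part in activating latent TGF-beta, rose in macrophages on HFD (log2 1.98 ± 0.214, adjusted p = 0.000722) and after weight loss (log2 1.61 ± 0.215, adjusted p = 0.00255, edgeR). Tgif1, a repressor of Smad targets, rose in macrophages (log2 2.24 ± 0.348, adjusted p = 0.00243), and Rgma (log2 -2.99 ± 0.543, adjusted p = 0.00438), a BMP co-receptor, and Crim1 (log2 -1.43 ± 0.222, adjusted p = 0.00245) fell. In progenitors Bmp8b rose (log2 3.29 ± 0.752, adjusted p = 0.0188) and Bmp8a fell (log2 -3.08 ± 0.728, adjusted p = 0.021), a pair of near-identical genes whose reads counting may not separate.

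Of 20 response genes, which TGF-beta or BMP is known to induce in other settings, 5 rose and 0 fell of 16 tested in progenitors, 4 rose and 5 fell of 14 in macrophages, 2 rose and 1 fell of 16 in adipocytes and 1 rose of 9 in endothelial nuclei, to be read against the same backgrounds (10.3% up in progenitors, 19.4% up and 16.7% down in macrophages). Their median log2 fold was 0.60 in progenitors, 1.09 in endothelial nuclei, -0.0040 in adipocytes and -0.44 in macrophages. The progenitor markers in endothelial nuclei were 4.06% to 8.91% of their progenitor level in chow and 9.38% and 14.5% in H and HH. The macrophage markers in progenitors were 1.93% to 2.73% of their macrophage level in chow and 14.2% and 12.7% in H and HH. The part of these markers in the folds was not tested. Progenitor Postn, a matrix protein, stood at 41.9, 24.1 and 39.98 CPM in C, CC and CCC, 757 and 297 in H and HH, 72.03 and 118 in HC and HHC, and 134 and 174 in CCH and HCH (log2 3.62 ± 0.387, adjusted p = 0.00173, edgeR). Col1a1 rose there too (log2 2.31 ± 0.372, adjusted p = 0.0057). Ccn2, a TGF-beta target in fibroblasts, stood in progenitors at 25.5, 17.2 and 32.1 CPM in C, CC and CCC, 102 and 78.9 in H and HH, 1.55 and 8.28 in HC and HHC, and 72.9 and 60.2 in CCH and HCH. It rose on HFD (log2 1.60 ± 0.37, adjusted p = 0.0198) and was lower than chow after weight loss (log2 -2.31 ± 0.46, adjusted p = 0.042, edgeR). Id3, a BMP target, rose in progenitors (log2 1.57 ± 0.439, adjusted p = 0.0372) and adipocytes (log2 2.51 ± 0.599, adjusted p = 0.0313, edgeR). In adipocytes it stood at 45.1, 44.8 and 129 CPM in C, CC and CCC, 392 and 494 in H and HH, 19.96 and 105 in HC and HHC, and 75.8 and 257 in CCH and HCH. The macrophage markers in adipocytes were 4.18% to 5.93% of their macrophage level in chow and 8.82% and 6.9% in H and HH. Their part in the Id3 rise was not tested. Tgfbi, despite its name as a TGF-beta induced gene, fell in macrophages on HFD (log2 -1.65 ± 0.185, adjusted p = 0.00077) and after weight loss (log2 -1.49 ± 0.185, adjusted p = 0.00188, edgeR). Its level was 309, 293 and 376 CPM in C, CC and CCC, 121 and 112 in H and HH, 123 and 114 in HC and HHC, and 302 and 163 in CCH and HCH. Atoh8 and Itgb8 fell in adipocytes with 0 UMIs in H and HH. After weight loss 3 of 26 other components rose in macrophages (background 5.46%) and 1 of 32 in progenitors (background 0.989%). Of the response genes 1 of 14 fell in macrophages (background 3.46%) and 1 of 16 in progenitors (background 0.321%). Itgb8 belongs to the list of other components and Atoh8 to that of response genes, and Acta2, a response gene, is also a mural gate marker.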

How the data were processed

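Nuclei of epididymal adipose tissue were profiled in 9 libraries, 1 per diet group. The authors deposited raw UMI counts per gene and barcode, made with Cell Ranger 6.1.2 on the mm10 reference (GRCm38) with intronic reads included and barcodes called as cells. Introns add pre-mRNA to a count, and overlapping genes cannot always be told apart. Nuclei with 500 to 3000 genes and at most 40000 UMIs were kept here, and doublets were removed with Scrublet (scanpy 1.11.5, 0.8% per 1000 nuclei; in CC, CCC and HHC, where the automatic threshold marked under 0.5%, at that expected rate). Groups and sequencing sets came from the sample labels. Summed counts per class were tested with edgeR 4.0.16 (TMM, quasi-likelihood, low counts filtered, R 4.3.3), with DESeq2 1.42.0 and a fit with age as a block as alternatives, over all genes with Benjamini-Hochberg adjustment. The fit was tested on simulated data: it recovered 29% of 2-fold and 98% of 4-fold changes in progenitors (14958 genes), 26% and 98% in macrophages (13649), 23% and 90% in endothelial nuclei (7179) and 15% and 89% in adipocytes (13998). Of the simulated HFD calls 0.877% in endothelial nuclei to 4.62% in macrophages were false. The simulation gave all genes the same dispersion and no differences of age, set or diet length within a state. Its rates hold for that setting, which is simpler than these libraries. Library totals were 22599619 to 66615262 UMIs.

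The members, gene lists, gates and tests were chosen with earlier results of these data known. The relative gate, the fits within LAM, PVM and progenitor kinds, the interaction and the marker shares were added after the data were seen. Values by library were given for up to 30 members that passed edgeR in a diet state, had a 2-fold ratio in both HFD pairs, both weight-loss pairs or HCH with CCH, or were highest of their role, taking the largest mean ratios. Where a library had 0 UMIs, a floor of 3 counts bounded the ratio. A marker share is the summed markers of a source class in another class over their level in the source class, and times the level of a gene in the source class it gives the level that the share alone would carry. P-values treat pools of 1 diet state as replicates, and animals within a pool were not separated. Promoters came from RefSeq (GRCm38.p6), where 32 of 44 members had an entry.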

Additional observations from a re-analysis of the deposited data

Results flagged for a closer look

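Ltbp4 moved in opposite directions on HFD in different classes, and for that reason it is listed here. Against chow the edgeR log2 fold was -1.61 in adipocytes (SE 0.435, adjusted p = 0.0438), -0.88 in macrophages (SE 0.276, adjusted p = 0.0354) and 1.01 in endothelial nuclei (SE 0.256, adjusted p = 0.0499). The endothelial and adipocyte effects differed by log2 2.36 ± 0.458 in edgeR (adjusted p = 0.0283), while the endothelial and macrophage effects were not compared by a test. The endothelial call was lost in each of the 7 fits that left out a library and under each of the 10 other settings, with a log2 fold of 0.91 to 1.204 throughout.

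Ltbp1 in mural nuclei of the main gate had opposite ratios in the HFD pairs, with a log2 of -1.92 for H to C (13 against 739 UMIs) and 1.56 for HH to CC (84 against 7 UMIs). The difference was not tested, and the mural class held 3 nuclei in its smallest library. Under the relative gate the mural marker Myh11 stood at 4525, 653, 526 and 987 CPM in C, CC, H and HH, and its part was not tested.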

How the results depend on the processing

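With 1 library per group, leaving out a library was done only in the fits by diet state and between subtypes. Of 147 single-gene results, 1191 values under alternatives kept direction and call, 198 lost the edgeR call and 126 lost the 2-fold call of a pair. The other 10 took the opposite sign, 3 of them as bounds that give no direction. The members called higher in a class numbered 66 over 8 classes, 42 of them in the 4 classes the strict gate left, where it called 40. On HFD 38 calls were made, of which 17 held with the sequencing set as a covariate and 23 of the 37 that could be fitted under the relative gate, and the count was 10 to 43 when 1 library was left out: 10 without HH, 12 without H, 19 without CC and 43 without C. After weight loss 2 calls were made, 1 without CC and without HHC and at most 3 with another library left out, against 7 with no upper limit on genes, 19 with no filter on low counts, 9 with DESeq2 and 20 with age as a block. Members past 2-fold over the 6 classes numbered 42 in HC to CC (23 under the strict gate) and 33 in HHC to CCC (17 under the strict gate, 20 at a minimum of 50 UMIs). With 10% of other classes subtracted, Acvr1c turned to a log2 of 0.26 in endothelial H to C and 0.31 in macrophage HCH to CCH. Under the strict gate Ltbp4 in macrophage HC to CC turned to 0.0884, while 3 values there are bounds against a library at 0 UMIs and give no direction: at least -1.61 for Gdf15 in progenitor HH to CC, at least -1.499 for Bmp3 in macrophage HHC to CCC and at most 0.63 for Bmp2 in adipocyte HHC to CCC. Bmp3 was -0.23 with no upper limit on genes and -0.44 under the relative gate, where Bmp4 in adipocyte HH to CC was 0.36 and Tgfb2 in adipocyte HHC to CCC 0.0255. The causes were not tested. The calls of Ltbp4 and Fstl1 in endothelial nuclei and of Tgfb2 in progenitors were lost when any of the 7 libraries was left out, and that of Ltbp4 also under each of the 10 other settings. No paired analysis by replicate number was possible because each group had 1 library, and the age-matched pairs were fitted with age as a block, which made 33 calls on HFD, 20 of the 38 among them.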
